A study of Mus musculus with 8 samples.

Results

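Mouse chromosome 17 was followed along its length in 8 liver tumors of FAH-/- mice by array comparative genomic hybridization, an assay that binds differently dyed tumor and reference DNA to one set of probes and reads their ratio. Its members are all measuring probes (no control spots) whose position in the array files lies on chromosome 17, which are 6548 of the 170183 probes of the autosomes and the X chromosome. The rule uses position alone and no measured value. The probes span chr17:3016266-95254967 on mm9, or 92.2 Mb, at a median spacing of 10.4 kb. The largest gap between neighbouring probes was 623 kb, at chr17:6288708-6911620. Of the 6548 probes, 6545 had a value on all 8 arrays, and 3 were left out because a spot carried an outlier mark.

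Chromosome 17 of the mouse carries the H2 complex, the mouse major histocompatibility complex (MHC). Class I molecules of the complex show peptides from inside the cell to cytotoxic T cells, class II molecules show peptides to helper T cells, and the class III stretch between them holds complement and cytokine genes. The chromosome also carries genes of growth control and liver metabolism, among them Igf2r, Axin1, Vegfa and C3. Mouse chromosomes have their centromere at one end, so a change that covers every probe takes in the whole single arm. The enzyme missing in these mice, fumarylacetoacetate hydrolase, carries out the final step in the breakdown of tyrosine, and animals without it depend on NTBC (nitisinone), which blocks the same pathway further upstream.

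The tumors came from 8 individual male mice with the genotype FAH-/-, and they are the replicates. Per the labels the normal NTBC dose was 7.5 mg/L in drinking water, and the animals lived on 2.5% of that dose for 6 to 12 months. Tumor DNA (1.5 µg) carried Cy5, and the reference, which carried Cy3, was liver DNA pooled from 6 FAH+/+ littermates, also male. The pool stood for normal liver on every array, no non-tumor liver of the FAH-/- mice is among the arrays analysed here, and the dyes were not swapped, so the spread between normal mice and any bias of the dyes at a probe lie outside the errors given here. Tumors are numbered 1 to 8 in the order of deposition. Tumors 1 to 4 lay on slide 1 and tumors 5 to 8 on slide 2.

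All values are log2 ratios of tumor over pool. The array cannot tell a change in few cells from a smaller change in all cells: a gain of 1 copy on 2 in every cell would give 0.58, and a loss of 1 copy would give -1. Both levels hold only for cells with 2 copies, and the number of copies per cell was not measured. On the first scale each array was centred on the commonest level of its autosomal segments. The arrays also shared a pattern from probe to probe. Over the probes of chromosome 17 the correlation between arrays was 0.918 to 0.965 among tumors 1 to 6, while a pair that included tumor 7 or 8 had 0.725 to 0.843. On the second scale this shared pattern was subtracted. That lowered the noise between neighbouring probes from between 0.39 and 0.65 to between 0.12 and 0.21, and it removes by construction short changes that most tumors have in common. Tumors 7 and 8 stood apart from the other 6 on the first scale, with noise of 0.39 against 0.62 to 0.65, and they carried less of the pattern, with slopes on it of 0.57 and 0.60 against 1.03 to 1.08. Their sample titles also carry numbers of another series than those of the other 6, and what these numbers stand for is not given in the labels. On chromosome 17, 97.7% to 99.9% of the spots per array were well above background in both channels and 0 were saturated. The header's own spread measure, 0.38 to 0.635, lay outside the range that the header gives for it on all 8 arrays.

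Chromosome 17 was gained as a whole in tumor 5, had a mean slightly above the common level in tumor 2, and lay close to the common level in tumors 1, 3, 4, 6 and 8. Tumor 7 was the only tumor with a partial change, called where segments past a log2 size of 0.2 cover 5% to 80% of the probed length. Which tumors had a partial change depended on the centring and on this threshold. No tumor had lost it as a whole. On the first scale the mean log2 ratio over the chromosome was -0.016 in tumor 1, 0.11 in tumor 2, -0.012 in tumor 3, -0.0093 in tumor 4, 0.37 in tumor 5, -0.010 in tumor 6, -0.078 in tumor 7 and -0.011 in tumor 8. Only tumors 2 and 5 were above 0. With the pattern subtracted the values in the same order were -0.0079, 0.12, -0.00096, -0.0065, 0.37, -0.020, -0.076 and -0.0023, with the same tumors above 0.

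**Figure D1:**
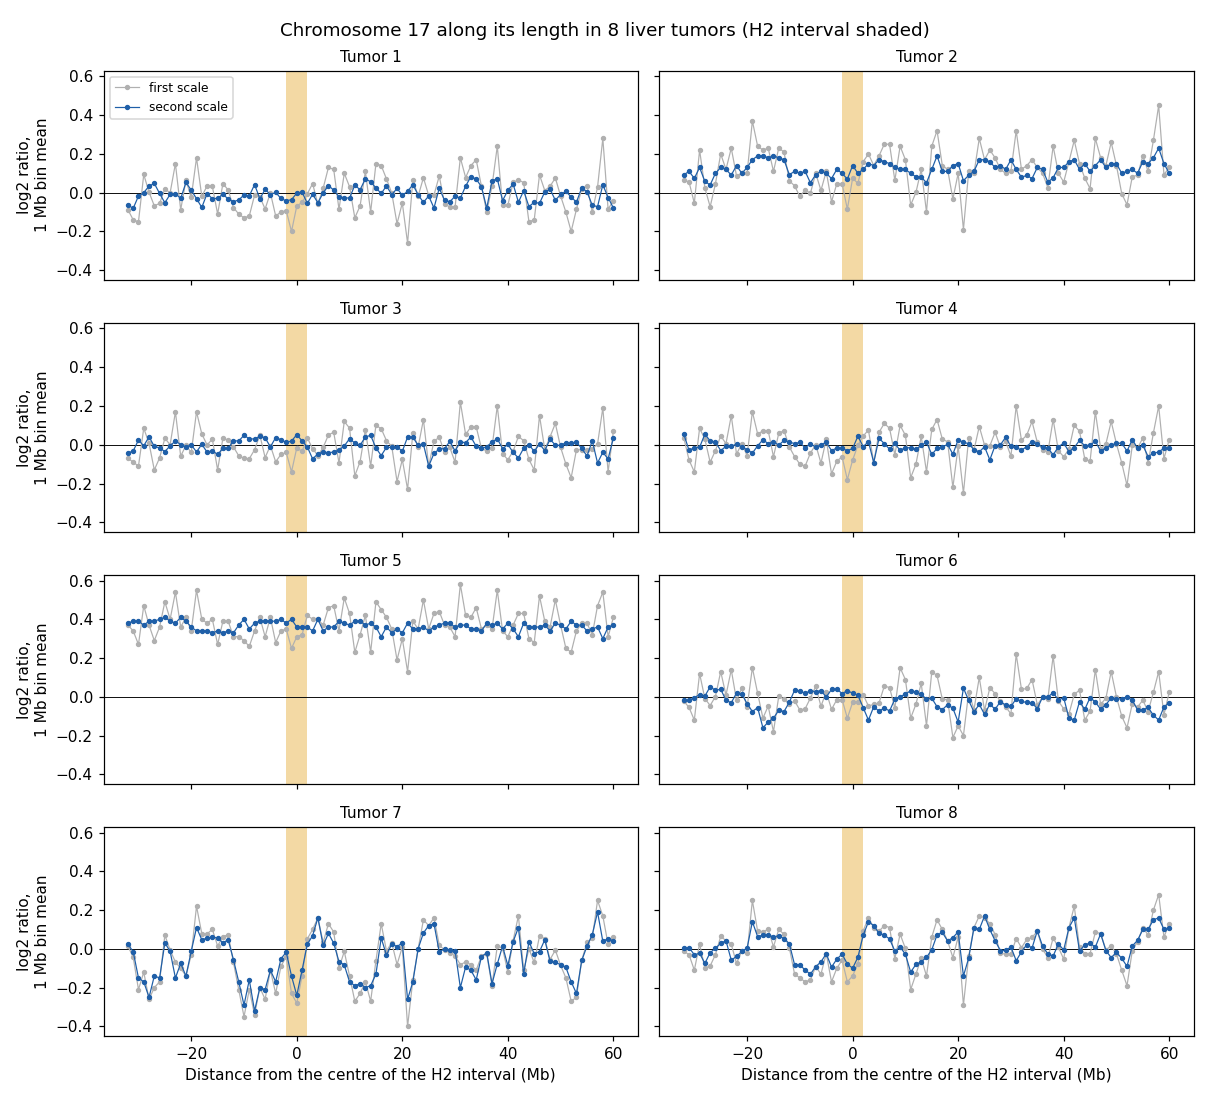
Mean log2 ratio of 1 Mb bins along chromosome 17 (vertical axis) against the distance of the bin from the centre of the H2 interval in Mb (horizontal axis), 1 panel per tumor, grey for the first scale and blue for the second, with the H2 interval shaded. Every bin of tumor 5 lies above 0, with bins of 0.30 to 0.41 on the second scale, while tumors 7 and 8 rise and fall along the chromosome on both scales.

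The first-scale mean over the 8 tumors, 0.042 ± 0.14 (SD, n = 8), did not differ from 0 beyond the spread between tumors (2-sided exact sign-flip permutation test, p = 0.625, Benjamini-Hochberg adjusted p over 20 chromosomes = 0.781). The second-scale mean was 0.046 ± 0.14 (exact permutation p = 0.5, adjusted p = 0.607). Tumor 5 decided the sign: without it the mean on the first scale was -0.0042 ± 0.055 (SD, n = 7). Centring decided the call: on the peak of the density of probe values in place of the commonest level, the mean was 0.42 and the adjusted exact permutation p was 0.0112. That peak lay below the array median in all 8 tumors, by 0.075 to 0.41. Most of the genome rose with this centring: 2040 of 2531 bins of 1 Mb were called higher by limma, so the rise was not particular to chromosome 17. Within slide 1 and slide 2 the first-scale means were 0.017 ± 0.060 and 0.067 ± 0.20 (SD, n = 4 each).

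Set against the mean of the other autosomes of the same tumor, chromosome 17 was higher in 7 of 8 tumors. The differences were 0.11, 0.16, 0.081, 0.016, 0.29, 0.12, -0.044 and 0.015 in tumors 1 to 8, with a mean of 0.093 ± 0.10 (SD, n = 8). The exact permutation p was 0.0391, and the value adjusted over 20 chromosomes was 0.195, so the difference did not pass the threshold of 0.05. Leaving out 1 tumor at a time gave 0.065 to 0.11, with adjusted exact permutation p-values of 0.104 to 0.391, and the means within the slides were 0.091 and 0.10. This difference does not depend on where an array is centred, and it moves with changes of the other chromosomes. In tumor 1, for example, it was 0.11 while the chromosome's own mean was -0.016 and the lowest autosome, chromosome 12, stood at -0.69.

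**Figure D2:**
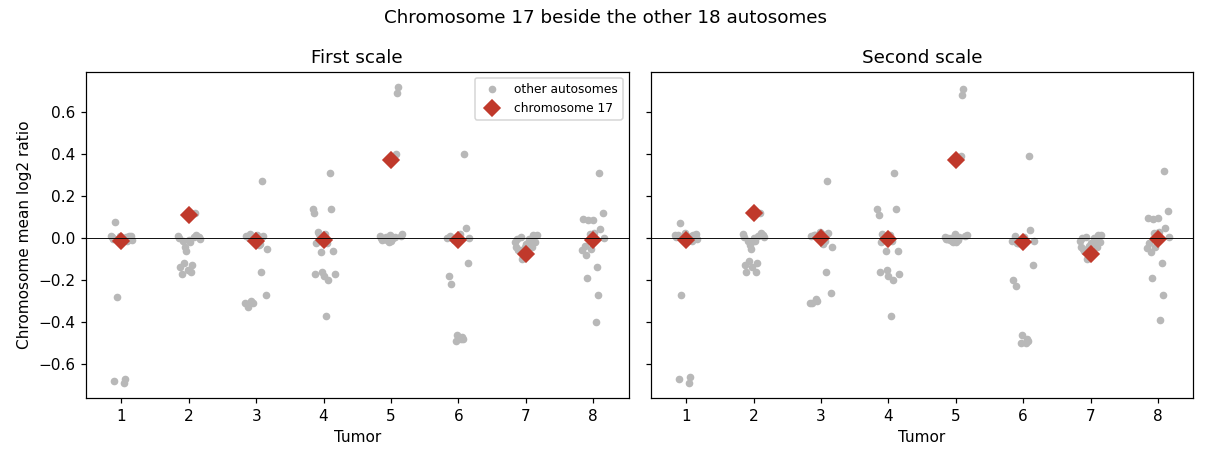
Mean log2 ratio of chromosome 17 (red diamonds) and of the other 18 autosomes (grey points) in each of the 8 tumors, on the first scale (left) and the second scale (right). Chromosome 17 stands clearly apart from 0 in tumor 5, at 0.37 on both scales, and next in tumor 2, at 0.11 and 0.12.

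In tumor 5 the gain ran from the first probe to the last. The segmentation, which divides each chromosome where its level steps, found 1 segment for all 6545 probes on the first scale, against a background of 16.1% of all probes in gained segments in that tumor. It had a mean of 0.37 and an SE over probes of 0.0083. This equals a linear ratio of 1.29. On the second scale there were 7 segments, of which 6 with 6541 of the 6545 probes were called gained, also against 16.1%. The other, chr17:51083397-51108053, stood at 0.012 with 4 probes, fewer than the 5 that a call needs. Across 3 equal parts of the chromosome the first-scale means were 0.37, 0.36 and 0.38, and the second-scale means were 0.37, 0.37 and 0.36. All 93 bins of 1 Mb were at or above the calling threshold of 0.2 on the second scale, with a lowest bin of 0.30, a highest of 0.41 and an SD between bins of 0.023. Of the first-scale bins 91 of 93 reached 0.2, with a range of 0.13 to 0.58. The lowest of these, at 56 to 57 Mb, was also the lowest bin of the chromosome in tumors 1, 2, 3, 4, 7 and 8. Whole-chromosome gains were called in 8 of 160 pairs of chromosome and tumor on either scale, a background of 5.00%, and the gain of chromosome 17 in tumor 5 is 1 of the 8. Centred on array medians, the whole chromosome was called gained in tumor 6 too, and on the density peak it was so in 6 of the 8 tumors.

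Tumor 5 had gained chromosomes 14, 15 and 16 as well, at 2 separate levels. Chromosome 14 stood at 0.40 and chromosome 17 at 0.37 on the first scale, with linear ratios of 1.32 and 1.29. Chromosomes 15 and 16 stood at 0.69 and 0.72, with linear ratios of 1.62 and 1.64. The 93 second-scale bins of chromosome 17 lay between 0.30 and 0.41 and the 115 bins of chromosome 14 between 0.31 and 0.45, so the ranges of these chromosomes overlapped. The second-scale bins of chromosome 15, from 0.64 to 0.73, and of chromosome 16, from 0.65 to 0.77, did not overlap with those of chromosome 17. On the first scale they did overlap, with bins of 0.13 to 0.58 on chromosome 17, 0.48 to 0.99 on 15 and 0.50 to 1.05 on 16. Copy number and the share of cells that carry a change cannot be told apart in these values. They come from 1 tumor, so there is no replicate check.

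**Figure D3:**
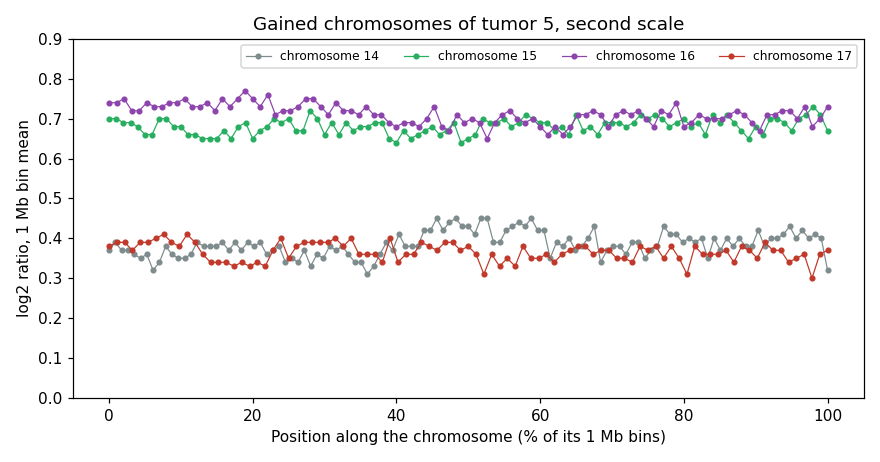
Mean log2 ratio of 1 Mb bins of chromosomes 14, 15, 16 and 17 in tumor 5 on the second scale (vertical axis) against the position of the bin in percent of the bins of its chromosome (horizontal axis). Chromosomes 17 and 14 run together, at means of 0.37 and 0.39, and chromosomes 15 and 16 run together above them, at 0.68 and 0.71.

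Tumor 2 showed a smaller upward shift of the chromosome, which took in every bin on the second scale but not on the first. Its mean of 0.11 on the first scale (0.12 on the second) equals a linear ratio of 1.08 (1.09). It was the second highest of 19 autosomes in that tumor, after chromosome 15 at 0.12. All 93 second-scale bins were above 0, from 0.040 to 0.23, and across 3 equal parts of the chromosome the means were 0.12, 0.11 and 0.12. The share of bins above 0 in tumor 2 was 99% on chromosome 15 and had a median of 39% over the other autosomes. Of the first-scale bins 81 of 93 (87.1%) were above 0. The shift lay under the threshold of 0.2, so no whole or partial gain was called. With a threshold of 0.1, 75.7% of the probed length of chromosome 17 was called gained in tumor 2.

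In tumor 7 parts of chromosome 17 were called lost. Whether copies were lost there was not tested apart from the calls. On the first scale 4 segments with 1336 probes, or 20.4% of the chromosome's probes, were called lost, against a background of 10.4% of all probes in that tumor. They covered 14.6 Mb, or 16% of the probed length, which fell to 2.83% with centring on the array median or with a threshold of 0.3. With the pattern subtracted 11 segments with 1114 probes (17% of probes, 13.3% of the length, 12.2 Mb) were called, against a background of 8.76% of all probes. Partial losses were called in 23 of 160 pairs of chromosome and tumor on the first scale (14.4%) and in 22 on the second (13.8%), and chromosome 17 held 1 of them on each. Partial gains made up 3.12% of pairs, or 1.88% with the pattern subtracted, and chromosome 17 had 0. Whole losses made up 11.9% of pairs, or 10.6% with the pattern subtracted, and chromosome 17 had 0.

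The largest segment called lost in tumor 7 lay at chr17:23754767-30077491 (mm9), 6.32 Mb with 626 probes and a mean of -0.27. The next, chr17:45212679-50929031, held 475 probes over 5.72 Mb at a mean of -0.22. The other two were shorter and lower: chr17:56082321-57541219 (150 probes, 1.46 Mb) at -0.37, and chr17:87605122-88739485 (85 probes, 1.13 Mb) at -0.39. None of them reached -1, the level of 1 copy of 2 lost in every cell, and the number of copies per cell was not measured. The same probes of tumor 7 stood at second-scale means of -0.22, -0.19, -0.28 and -0.27.

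On the first scale all 4 stretches were below the chromosome's own mean in all 8 tumors. At chr17:23754767-30077491 the first-scale difference from the chromosome mean was -0.073, -0.094, -0.035, -0.067, -0.061, -0.025, -0.19 and -0.13 in tumors 1 to 8. Tumor 7 was the lowest and tumor 8 the next. The second-scale differences were 0.0013, -0.023, 0.038, 0.0068, 0.012, 0.048, -0.15 and -0.087, so that tumors 2, 7 and 8 stayed below 0. At chr17:56082321-57541219 they were -0.12, -0.22, -0.11, -0.14, -0.15, -0.10, -0.29 and -0.23 on the first scale. Their second-scale values were 0.043, -0.063, 0.053, 0.022, 0.011, 0.059, -0.21 and -0.14, again below 0 in tumors 2, 7 and 8. At chr17:45212679-50929031 they were -0.011, -0.080, -0.032, -0.061, -0.039, -0.019, -0.14 and -0.095 with the pattern kept, and 0.040, -0.030, 0.019, -0.0095, 0.011, 0.032, -0.11 and -0.066 with it subtracted, below 0 in tumors 2, 4, 7 and 8. The stretch at chr17:87605122-88739485 differed from the rest in its order. Its first-scale differences were -0.24, -0.22, -0.19, -0.22, -0.19, -0.21, -0.31 and -0.18, and its second-scale differences were -0.024, -0.0100, 0.026, 0.00021, 0.022, 0.0075, -0.20 and -0.061. Tumor 8 was the least low of the 8 there on the first scale, and tumors 1, 2, 7 and 8 were below 0 on the second. Since the second scale sets the arrays against their own shared pattern, it can give opposite signs to arrays that carry more and less of it.

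Tumors 7 and 8 rose and fell together along the chromosome. Over its 93 bins the correlation between both tumors was r = 0.91, and with the pattern subtracted it was r = 0.87. Over the bins of the other autosomes the median r was 0.85 (range 0.75 to 0.93) and 0.79 (range 0.61 to 0.90), so the likeness was not limited to chromosome 17. It was not limited to this pair either. Pairs among tumors 1 to 6 had first-scale r of 0.72 to 0.93 on chromosome 17. Tumor 2 had r = 0.79 with tumor 7 and r = 0.87 with tumor 8, and 0.73 and 0.68 with the pattern subtracted. The bins of a chromosome share arrays, slide and probe design, and these correlations are descriptions. The bins of tumors 7 and 8 were lower where the array has more probes: r with the number of probes per bin was -0.54 in tumor 7 and -0.57 in tumor 8 (-0.55 and -0.65 with the pattern subtracted). The medians over the other autosomes in tumors 7 and 8 were -0.41 and -0.39 (-0.47 and -0.50 with the pattern subtracted). In tumors 1 to 6 the first-scale r on chromosome 17 was -0.22, -0.37, -0.10, -0.23, -0.21 and -0.023, so all 8 tumors were below 0. Their medians over the other autosomes ranged from -0.16 to 0.19. With the pattern subtracted r on chromosome 17 was 0.087, -0.43, 0.51, 0.17, 0.32 and 0.50 in tumors 1 to 6. Among these only tumor 2 stayed below 0. The part of probe density, and of what goes with it along the genome, in the losses of tumor 7 was not tested.

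Breakpoints were taken as borders between 2 segments of at least 1 Mb whose means differed by at least 0.2. On the first scale there were 14, of which 6 were in tumor 7 and 8 in tumor 8, and tumors 1 to 6 had 0. The largest step of either tumor stood at the far border of the 56 to 57 Mb stretch, where the last low probe ended at 57541219 and the next probe began at 57552989 in both tumors. There the level rose by 0.46 in tumor 7 and by 0.39 in tumor 8. The same border, measured with the segments of tumor 7, rose by 0.16, 0.29, 0.14, 0.17, 0.18 and 0.11 in tumors 1 to 6. All 14 first-scale steps had the same sign in all 8 tumors. Of the 16 segment borders of tumor 7, 5 (31.2%) lay within 100 kb of a border of tumor 8, and these were 5 of the 12 borders of tumor 8 (41.7%). This sharing did not hold on the second scale. There 3 of 36 borders of tumor 7 (8.33%) lay near a border of tumor 8, and 4 (11.1%) near one of tumor 3. Of the 19 second-scale borders of tumor 8, 3 (15.8%) lay near a border of tumor 7 and 5 (26.3%) near one of tumor 6.

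Of the remaining borders of tumor 7, the level fell by 0.36 between 23745756 and 23754767, fell by 0.26 between 45198694 and 45212679, and fell by 0.38 between 56076480 and 56082321. It fell by 0.34 between 87572575 and 87605122 and rose by 0.44 between 88739485 and 88762363. Tumor 8 fell by 0.26 between 23875393 and 23883755, by 0.23 between 45563003 and 45572156 and by 0.32 between 55972849 and 55986602. Its other borders were a rise of 0.21 between 37121670 and 37134793, a rise of 0.21 between 49983651 and 49991324, a step of -0.21 between 86580700 and 86587017 and a rise of 0.30 between 88234276 and 88274300. The gap between the neighbouring probes at these borders was 5.84 to 40 kb wide. This is not the uncertainty of a border, since borders of tumor 7 near 23.7, 56.1 and 57.5 Mb moved by more than the gap when the pattern was subtracted.

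On the second scale 6 borders met the rule, 4 in tumor 7 and 2 in tumor 8, and for 0 of them did all 8 tumors step the same way. The subtracted pattern is a median over these same 8 tumors, which places tumors on either side of it. That largely sets this count in advance, so it is no finding about the borders. In tumor 7 they lay between 23656873 and 23688347 (a step of -0.25), 50409196 and 50416782 (0.22), 56120180 and 56134399 (-0.31), and 57487557 and 57494725 (0.33). In tumor 8 they lay between 55972849 and 55986602 (-0.21) and between 57514489 and 57541160 (0.26). At the border near 56.1 Mb the steps in tumors 1 to 6 were 0.043, -0.088, 0.084, 0.038, 0.037 and 0.10. Only tumor 2 among these stepped down with tumors 7 and 8.

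**Figure D4:**
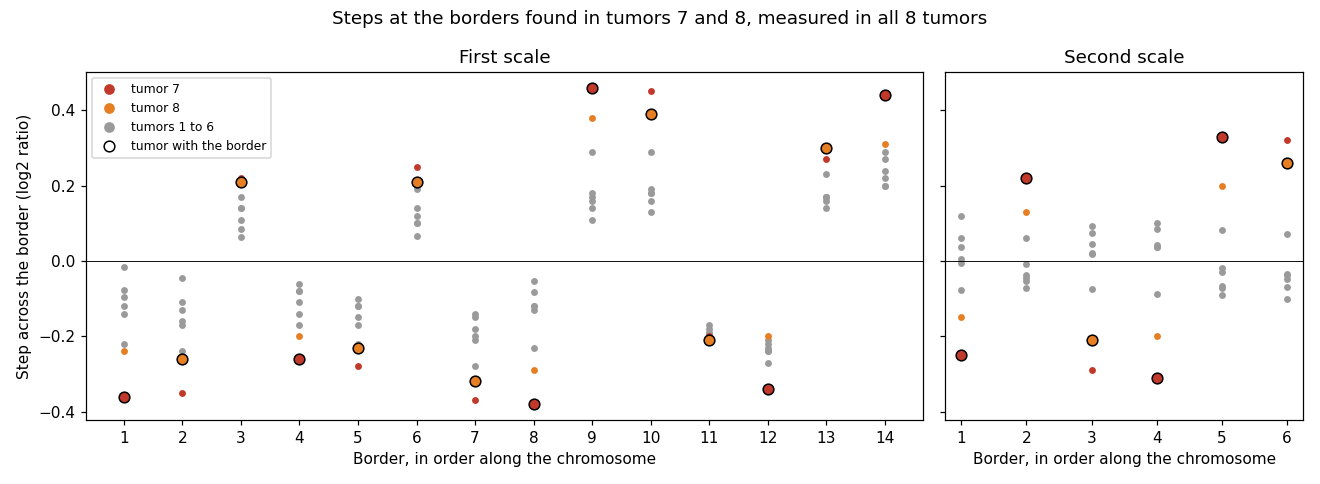
Step in log2 ratio across each border (vertical axis) for the 14 borders of the first scale (left) and the 6 of the second (right), in order along the chromosome, with tumor 7 in red, tumor 8 in orange, tumors 1 to 6 in grey and a black ring on the tumor in which the border was found. All 8 tumors step the same way at each of the 14 borders on the left, and at 0 of the 6 on the right. The count on the right is largely set by subtracting a median over the same 8 tumors.

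The H2 interval, taken as 33.5 to 37.5 Mb with 360 probes, was slightly lower than the other 6185 probes of the chromosome in all 8 tumors on the first scale, and not on the second. The first-scale level of the interval was -0.10, 0.031, -0.049, -0.074, 0.31, -0.038, -0.17 and -0.11 in tumors 1 to 8. The interval was gained with the rest of the chromosome in tumor 5, and no tumor had a called segment with the borders of the interval. The difference from the rest was -0.088, -0.081, -0.040, -0.069, -0.064, -0.029, -0.094 and -0.10, with a mean of -0.071 ± 0.025 (SD, n = 8). The 2-sided exact sign-flip permutation p was 0.00781, the smallest that 8 tumors allow, and stayed 0.00781 when adjusted over the 2 comparisons within the chromosome. The second-scale differences were -0.018, -0.014, 0.029, 0.00057, 0.0041, 0.040, -0.057 and -0.061, with 4 tumors on either side of 0 and a mean of -0.0096 ± 0.036 (exact permutation p = 0.469, adjusted p = 0.617). Within slide 1 and slide 2 the first-scale means were -0.069 and -0.072 (n = 4 each, exact permutation p = 0.125, the smallest that 4 tumors allow), and without tumors 7 and 8 the mean was -0.062. The call ended when the pattern shared by the arrays was subtracted, and this subtraction would also remove a real change of the interval that most tumors have in common.

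Other stretches of the same length differed from their chromosome in the same way. Of 605 windows of 4 Mb over the autosomes, 13.4% were lower than the rest of their chromosome in all 8 tumors on the first scale and 17.4% were higher in all 8. On chromosome 17, 7 of 23 such windows were lower in all 8 and 7 were higher in all 8. The H2 interval was the fourth lowest of the 23, at -0.071, after 53.5 to 57.5 Mb at -0.12 ± 0.015, 25.5 to 29.5 Mb at -0.079 ± 0.066 and 45.5 to 49.5 Mb at -0.075 ± 0.048 (SD, n = 8). The highest was 65.5 to 69.5 Mb at 0.083 ± 0.041. Beside the H2 interval, the windows from 29.5 to 33.5 Mb stood at -0.054 ± 0.025 and from 37.5 to 41.5 Mb at 0.075 ± 0.063. After subtraction of the pattern 0.00% of the windows were lower, and 0.00% higher, in all 8 tumors. Subtracting a median over the same 8 tumors largely sets these shares in advance.

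**Figure D5:**
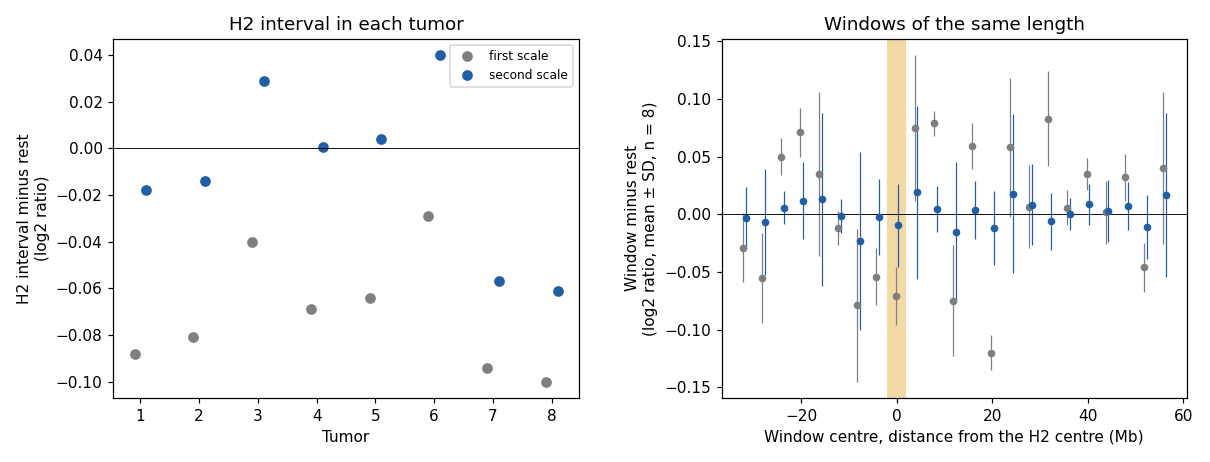
Left, H2 interval minus the rest of chromosome 17 in log2 ratio for each of the 8 tumors, grey for the first scale and blue for the second. Right, the same difference for 23 windows of 4 Mb along the chromosome (mean ± SD, n = 8 tumors) against the distance of the window centre from the H2 centre in Mb: the H2 interval, shaded, lies at -0.071 in grey and at -0.0096 in blue, among windows from -0.12 to 0.083 on the first scale.

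Inside the interval the levels were not even. In steps of 1 Mb, the first-scale values of the first step (33.5 to 34.5 Mb, 99 probes) were -0.18, -0.039, -0.11, -0.15, 0.26, -0.089, -0.16 and -0.15 in tumors 1 to 8. The third step (35.5 to 36.5 Mb, 77 probes) stood at 0.045, 0.16, 0.082, 0.071, 0.43, 0.10, -0.16 and -0.074. Every tumor but tumor 7 was thus higher in the third step than in the first, and tumor 7 had the same value in both. The second-scale values of the third step were -0.0019, 0.12, 0.037, 0.019, 0.38, 0.036, -0.19 and -0.10, so that tumors 7 and 8 were the lowest. In the second step (34.5 to 35.5 Mb) tumors 7 and 8 stood at -0.18 and -0.079 on that scale, and in the fourth (36.5 to 37.5 Mb) tumor 7 stood at -0.055.

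Within the interval, losses were called in tumor 7 alone and on the second scale alone. They lay at chr17:34044073-34234034 (19 probes, -0.30) and chr17:34733075-35870134 (104 probes, -0.25). At the longer of them the second-scale values were -0.0066, 0.12, 0.054, -0.022, 0.37, 0.028, -0.25 and -0.10 in tumors 1 to 8. Tumor 8 was the next lowest after tumor 7. The same probes of tumor 7 stood at -0.30 on the first scale, inside a segment from 30083017 to 37121670 with a mean of -0.15 that did not reach the threshold of 0.2.

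The H2 genes are among the most variable genes between mouse strains, and the labels used here name no strain. The shared pattern was above 1 at 28 of the 360 probes of the interval (7.78%) and at 600 of the other 6185 (9.7%), and below -1 at 3 (0.833%) and 41 (0.663%). Its median was -0.082 inside the interval and -0.0015 outside. The median SD of a probe between tumors on the second scale was 0.21 in both, and the SD was above 0.5 at 0 probes of the interval and at 45 of the rest. Leaving out probes with a pattern beyond 1 gave a difference between interval and rest of -0.050 ± 0.026 on the first scale.

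The stretch before the interval (2308 probes) was lower than the stretch after it (3877 probes) by a small amount on the first scale. The differences were -0.038, -0.028, -0.014, -0.017, -0.013, -0.0058, -0.041 and -0.044 in tumors 1 to 8, with a mean of -0.025 ± 0.015 (SD, n = 8) and an exact permutation p of 0.00781, also after adjustment. All 8 tumors were below 0, and the means within the slides were -0.024 and -0.026. The second-scale mean was -0.0034 ± 0.019, with 4 tumors on either side of 0 (exact permutation p = 0.617, adjusted p = 0.617). The difference thus passed the test on the first scale only, like that of the H2 interval. Here too the subtraction would remove a real difference that most tumors have in common, so the second scale cannot decide whether there is one.

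Single bins of 1 Mb did not shift past the threshold. By limma, with a minimum log2 size of 0.1 and Benjamini-Hochberg adjustment over 2531 bins of the genome, 0 of 93 bins of chromosome 17 were higher and 0 were lower on the first scale, against backgrounds of 0.0395% and 0.0790%. At an unadjusted limma p under 0.05, 5 bins were higher and 1 was lower, against 97 and 223 of all 2531 bins. On the second scale 0 bins passed in either direction, against backgrounds of 0.00% and 0.00%. There 0 had an unadjusted limma p under 0.05, against 83 of all 2531 bins higher and 104 lower. The count on the first scale rested on the centring. On array medians 25 bins were higher, against 248 of all 2531 bins, and on the density peak 92 were higher, against 2040. On either, 0 bins of the chromosome were lower.

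The highest bins by mean over the tumors were 93 to 94 Mb at 0.28 ± 0.14 (limma adjusted p = 0.128), 16 to 17 Mb at 0.26 (adjusted p = 0.141), 73 to 74 Mb and 66 to 67 Mb at 0.21 each, followed by 51 to 52, 59 to 60 and 81 to 82 Mb, tied at 0.19. At 93 to 94 Mb (31 probes) the first-scale values were 0.28, 0.45, 0.19, 0.20, 0.54, 0.13, 0.17 and 0.28 in tumors 1 to 8, all above 0. Their second-scale values were 0.041, 0.23, -0.039, -0.037, 0.30, -0.12, 0.039 and 0.16. The lowest bin was 56 to 57 Mb at -0.21 ± 0.15 (limma adjusted p = 0.328), followed by 87 to 88 Mb at -0.13, 34 to 35 Mb and 46 to 47 Mb at -0.11 each and 49 to 50 Mb at -0.10. At 56 to 57 Mb the first-scale values were -0.26, -0.19, -0.23, -0.25, 0.13, -0.20, -0.40 and -0.29, so that tumor 5 alone, in which the whole chromosome was gained, was above 0. The second-scale values of this bin were 0.0064, 0.062, 0.040, 0.012, 0.38, 0.045, -0.26 and -0.14, lowest in tumors 7 and 8.

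Short called segments, under 3 Mb, were few on the first scale and mostly in places where the other tumors had like values. The 3 short gains were chr17:68227267-68271953 in tumor 3 (7 probes, 1.27), chr17:68161630-68271953 in tumor 1 (12 probes, 0.95) and chr17:50937409-51089810 in tumor 7 (17 probes, 0.51). At the 7 probes of the first of these the first-scale values were 1.24, 1.12, 1.27, 1.20, 1.42, 1.04, 0.31 and 0.49 in tumors 1 to 8, and the second-scale values were 0.12, 0.063, 0.17, 0.091, 0.33, -0.075, -0.29 and -0.13. All 8 tumors were thus high there on the first scale, and tumor 3, in which the segment was called, did not stand out. The 4 short losses were the stretches of tumor 7 at 56 and 87 Mb, the overlapping chr17:55986602-57541219 of tumor 8 (160 probes, -0.24, 1.69% of the length) and chr17:56363362-57029853 of tumor 2 (70 probes, -0.31). At the last of these the first-scale values were -0.33, -0.31, -0.34, -0.36, 0.024, -0.30, -0.51 and -0.33, so that the level of tumor 2 did not stand out either. Its chromosome mean was 0.11, so it lay further below its own mean than every tumor but tumor 7. On the second scale these probes stood at 0.053 in tumor 2, below its chromosome mean of 0.12.

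On the second scale 5 short gains and 10 short losses were called. In tumor 5, chr17:10608972-10695481 (11 probes) stood at 0.59, above the 0.37 of the chromosome. The other tumors had -0.12, 0.033, 0.078, -0.022, 0.20, 0.0074 and -0.055 there in the order 1, 2, 3, 4, 6, 7 and 8. Tumor 6 was thus also above its chromosome mean of -0.020 at these probes. In tumor 6, chr17:56585118-56652542 (8 probes) stood at 0.38, while tumors 1, 2, 3, 4, 5, 7 and 8 had 0.057, 0.027, 0.012, 0.0061, 0.41, -0.36 and -0.10. Tumor 5 was as high there, on a chromosome gained as a whole. The remaining gains were chr17:75332179-75444075 in tumor 1 (9 probes, 0.26), chr17:50865557-51296351 in tumor 2 (48 probes, 0.25) and chr17:3016266-3175634 in tumor 4 (15 probes, 0.22). On the first scale the short gains of tumors 1, 2, 4, 5 and 6 stood at 0.049, 0.39, 0.31, 0.57 and 0.032 in these tumors. With each array's pattern taken from the other 7 arrays alone, the gained length was 0 in tumors 1 and 4. It was 0.365% in tumor 2 and 0.0733% in tumor 6.

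The lowest short segments of the second scale were all in tumor 7. They were chr17:66564341-66702026 (7 probes, -0.65), chr17:88184010-88373037 (10 probes, -0.61), chr17:25508776-25787743 (29 probes, -0.51), chr17:27178953-27646584 (33 probes, -0.44) and chr17:56134399-57487557 (141 probes, -0.30). At chr17:25508776-25787743 the second-scale values of tumors 1 to 8 were 0.025, 0.10, 0.079, 0.043, 0.39, 0.00074, -0.51 and -0.11. Tumor 7 lay well below the others there, and tumor 8 was the next lowest. These probes stood at -0.54 in tumor 7 and at -0.14 in tumor 8 on the first scale.

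The array files give positions without gene names, and gene positions on mm9 were not used here, so genes are named as residents of the chromosome and by their order in the RefSeq annotation of GRCm38.p6. That annotation has 2192 entries on chromosome 17, of which 1059 are protein coding and 44 are miRNA genes. Of 75 names on the lists, 74 were found on the chromosome, for 73 distinct genes. The name not matched was H2-L. All 73 genes lie on the chromosome that tumor 5 gained from the first probe to the last and that tumor 2 held slightly above the common level.

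The 39 MHC genes on the lists run from H2-K1, a class I gene, to H2-M2, over 283 entries of which 169 are protein coding. All 11 listed genes of the class II stretch were found, among them H2-Ab1, H2-Aa and H2-Eb1, the chains of the classical class II molecules, and Tap1, Tap2, Psmb8 and Psmb9, which cut and move peptides for class I molecules. After them come 15 listed class III genes, among them Tnf, Lta and Ltb of the tumor necrosis factor family and the complement genes C2, Cfb and C4b. Of 14 listed class I names 13 were found, among them H2-D1 and H2-T23. None of the other listed genes lies among the MHC genes.

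Of the 34 other listed genes, 18 come before the first MHC gene. Among these are Igf2r, which takes up and removes insulin-like growth factor 2, Tsc2, a brake on mTOR signalling, Axin1, a scaffold of beta-catenin breakdown, and Cdkn1a, the cell cycle inhibitor p21. Liver genes on this side are Plg (plasminogen) and Sod2, the mitochondrial superoxide dismutase. The other 16 come after the last MHC gene. They include Vegfa, which drives vessel growth, the cyclin gene Ccnd3, complement C3 and the sterol transporters Abcg5 and Abcg8. No gene is placed in the stretches called lost in tumor 7 here, since a position on mm9 would be needed for that.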

How the data were processed

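The members and the gene lists were chosen with earlier results of these data known. Images were extracted with Agilent Feature Extraction 10.7.3.1, per the submitters' processing notes and the file headers. The deposited processed signals are intensity values that the authors' software background-subtracted, detrended and dye-normalized (linear). Medians of spot and local background, also deposited as intensity values, have had no such steps. The deposited log ratios are log10 of tumor (Cy5) over pool (Cy3), and the deposited series table holds them rounded, differing by at most 0.00499, with column medians of -0.0171 to -0.00484. Per the file headers each spot's quality marks, of unit other, take the value 0 or 1, and the genome build of the positions is mm9 (NCBI37). The strain, and any repeat hybridization, are not given in the sources used here.

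Of 174305 spots that are not controls per array, 6688 lie on chromosome 17, of which 1 to 6 per array carried an outlier mark and were left out. The median signal over background there was 4.27 to 8.14 for tumor DNA and 4.42 to 11.8 for the pool, and the number of arrays limits the precision. Log2 ratios of processed signals were averaged per probe and centred on the commonest autosomal segment level, which lay 0.021 to 0.25 above the array median. The pattern removed on the second scale is, per probe, the median of the 8 log2 ratios left after each array's chromosome medians were taken off, fitted to each array by a slope. Arrays were segmented by recursive circular binary segmentation (Python 3.11.15, numpy 2.4.6, pandas 2.3.3, numba 0.67.0) with a split threshold of z = 5.13, probe values limited to 4 noise SD and merging below z = 4. A segment of at least 5 probes was called at a mean of 0.2 or more in size, a chromosome as whole at 80% or more of its length and as partial from 5%. Means per tumor were tested with 2-sided exact sign-flip permutation tests, and bins of 1 Mb with at least 10 probes with limma 3.58.1 (R 4.3.3, treat at 0.1, adjusted p under 0.05). Plots were drawn with matplotlib 3.10.9. Segmentation and tests were tested on simulated data.

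By rule the text names every whole or partial change, every border with a step of 0.2 or more between segments of at least 1 Mb, up to 5 short segments per direction, the 5 highest and 5 lowest bins (with ties) and the 1 Mb steps of the H2 interval. The intervals of tumor 7 inside the H2 interval were singled out after their values were seen. Genes are named from lists, by their order in the RefSeq table of GRCm38.p6. Alternatives covered the centring, background correction (normexp, offset 50), the median over probes, the series table and outlier spots. They also covered each tumor or slide left out, call and merge thresholds, the H2 borders, and a pattern taken from the other 7 arrays.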

Additional observations from a re-analysis of the deposited data

Results flagged for a closer look

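The mean of chromosome 17 in tumor 5 stood far from the other 7 tumors: it was 0.37 with the probe pattern kept and 0.37 with it subtracted. Its gap to the nearest tumor was 0.584 of the whole range in the first case and 0.563 in the second, above Dixon's critical value for 8 samples. Of 10 such sets of 8 values 2 stood out. Chance marks about 1 in 20 independent sets. The sets here are the same measures on both scales of the same arrays, and the 2 are 1 measure. Their number thus cannot be weighed against that rate. It is the tumor with the gain of the whole chromosome.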

How the results depend on the processing

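The mean of chromosome 17 turned negative as a median over probes (-0.056) and without replicate 5, with a range of -0.0042 to 0.060 when 1 tumor at a time was left out. It passed the test on the density peak (0.42, adjusted exact permutation p = 0.0112) and not on array medians (0.18, 0.0521). The H2 difference lost its call with the pattern subtracted (-0.0096) and, with the smallest exact permutation p of 0.125, within slide 1 (-0.069) and slide 2 (-0.072). The difference between the stretches before and after H2 did so too (-0.0034, -0.024 and -0.026). Leaving out 1 tumor gave -0.077 to -0.066 for H2 and -0.028 to -0.023 for the stretches, all at adjusted exact permutation p = 0.0156. By limma 25 bins of chromosome 17 were higher on array medians and 92 on the density peak, against 248 and 2040 of all 2531. The count was 1 with slide as a random block (correlation -0.0742), against 20, and 0 without any 1 tumor. With no minimum size 9 were higher and 1 was lower, against 130 and 279. The gained length, a mean of 12.5% per tumor, became 81.4% on the density peak, and whole gains rose from 1 to 6. On array medians there were 2, in tumors 5 and 6, while tumors 1, 2 and 8 were gained over 29.4%, 75.7% and 5.36% of the length. The lost length of tumor 7 was 2.83% on array medians, on the density peak or at a threshold of 0.3, 23.6% with merging below z = 6, and 30.6% at a threshold of 0.1. At 2.83% it was no longer a partial change. With the threshold of 0.1 tumor 8 had 22.4% of the length lost and 21.6% gained. The H2 difference was -0.094 with the interval narrowed by 0.5 Mb at each end, -0.050 widened and -0.055 after normexp. The setting without tumors 7 and 8 was chosen after seeing the data and gave 0.071, 0.13, -0.062 and -0.019 for the chromosome mean, its difference from the other autosomes, H2 and the stretches. The cause of these shifts was not tested. No paired analysis was possible because all tumors form 1 group, set against 1 pool.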
